A study of Homo sapiens with 9 samples.

Results

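Genes named LINC followed by a number are long intergenic noncoding RNA genes, and 141 of them, of 1725 LINC genes in a table of 28216 genes, reached a mean of at least 2 CPM (counts per 1000000 counts on genes of a library) in at least 1 of 3 groups of human prostate cancer cells. The genes were thus chosen by their measured level, and the levels are given as a description. Of the remaining LINC genes, 860 had no count in any library and 724 were counted below the threshold. RNA sequencing covered 9 libraries, 3 per group. PC3 cells were untreated and grown in F12K medium with 10% fetal bovine serum. LNCaP cells, clone FCG, were kept for 24 h in phenol red-free medium with 10% charcoal-stripped serum and then received 10 nM androgen or the vehicle, 0.01% ethanol, for 48 h. The androgen is dihydrotestosterone per the labels, and the study's methods give it as a synthetic form, R1881. Both are established lines from metastases, each group is 1 line, and PC3 cells were not given the stripped medium, so line and medium cannot be told apart. The labels do not say whether the replicates were separate cultures, and the p-values measure the spread between these libraries, which may be technical.

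Long noncoding RNAs are transcribed by RNA polymerase II, usually spliced and polyadenylated, and contain no long open reading frame. Some act at the locus where they are made, on a neighbouring gene, others bind proteins or microRNAs elsewhere in the cell, and a few encode short peptides or yield circular RNAs. Their expression is typically lower and more restricted to particular cell types than that of protein-coding genes, and several have been studied in prostate cancer.

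Libraries held between 17397706 and 25640325 counts on genes, so that 3 counts, taken as the limit for a count of 0, corresponded to between 0.117 and 0.172 CPM. Such limits and all counting intervals given here cover counting error only. A list of 8 luminal prostate genes summed to 10250 to 11040 CPM in androgen-treated LNCaP, 2987 to 3450 in vehicle-treated LNCaP and 514 to 853 in PC3 cells, while 8 PC3 marker genes summed to 3686 to 3738 CPM in PC3 and 12.5 to 33.5 CPM in LNCaP libraries. Most of the luminal sum in PC3 was HOXB13, at 470 to 798 CPM there and not called between the lines. The other 7 luminal genes were called lower in PC3 in both comparisons of the lines. Of the PC3 markers, KRT5 went the other way, with means of 0.0133 CPM in PC3 and 0.125 CPM in androgen-treated LNCaP. Within LNCaP, replicate 1 of each treatment had the highest sum of the PC3 markers, 33.5 CPM with androgen and 21.2 CPM with vehicle, against 12.5 to 17.6 CPM in the other 4 libraries. The origin of these counts was not tested, and for LINC02582, LINC00261, LINC01116, LINC00857 and FOXA2 the values without replicate 1 are given.

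In GENCODE 44 on GRCh38, 136 of the 141 genes were found, 20 of them under a newer name, and 131 were annotated as lncRNA. Their exons covered a median of 3967 bases. Most lay close to a protein-coding gene: 28 overlapped one, 73 lay within 10000 bases of one and 23 lay over 100000 bases away. The start of 17 lay back to back with a coding gene's start within 2000 bases. Reads of 74 bases cannot be placed uniquely where such a stretch recurs elsewhere. This held for over 50% of the stretches in 9 of the genes, whose values are uncertain. Among them were LINC02197 (77.6%), LINC01297 (70.4%), LINC01145 (85.4%), LINC01123 (93.5%) and LINC00685 (100%). Reads were counted on LINC00685 even so, at 9.62 CPM per kilobase of exon with androgen, and why was not tested.

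The promoters of 6 LINC genes are shown. LINC00261 and LINC01806 were high in PC3, LINC00160 and LINC01322 were seen almost entirely under 1 LNCaP treatment each, and LINC01213 and LINC00641 were lower with androgen and hold letters of the androgen response element. Each sequence runs 5′ to 3′ from 250 bases before to 50 bases after an annotated start, from RefSeq on GRCh38.p14. Capitals mark AGAACA or its reverse complement TGTTCT, the letters of 1 arm of the androgen response element, and TATAAA or its reverse complement TTTATA. LINC00261 lies at chr20:22578593-22578892 (minus strand), LINC01806 at chr2:161244489-161244788 (plus), LINC00160 at chr21:34737133-34737432 (minus), LINC01322 at chr3:165206698-165206997 (plus), LINC01213 at chr3:150238450-150238749 (plus) and LINC00641 at chr14:21206851-21207150 (minus).
LINC00261: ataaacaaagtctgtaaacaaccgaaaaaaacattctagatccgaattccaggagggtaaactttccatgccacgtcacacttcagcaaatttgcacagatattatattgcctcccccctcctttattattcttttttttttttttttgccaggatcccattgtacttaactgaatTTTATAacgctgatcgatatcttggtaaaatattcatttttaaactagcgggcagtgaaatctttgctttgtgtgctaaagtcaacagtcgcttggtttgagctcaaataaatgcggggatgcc
LINC01806: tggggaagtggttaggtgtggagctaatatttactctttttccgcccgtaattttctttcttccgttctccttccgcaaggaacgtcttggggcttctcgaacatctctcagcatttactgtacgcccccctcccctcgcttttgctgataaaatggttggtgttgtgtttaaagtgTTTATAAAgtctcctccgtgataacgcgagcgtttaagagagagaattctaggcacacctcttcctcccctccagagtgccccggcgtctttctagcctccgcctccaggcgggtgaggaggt
LINC00160: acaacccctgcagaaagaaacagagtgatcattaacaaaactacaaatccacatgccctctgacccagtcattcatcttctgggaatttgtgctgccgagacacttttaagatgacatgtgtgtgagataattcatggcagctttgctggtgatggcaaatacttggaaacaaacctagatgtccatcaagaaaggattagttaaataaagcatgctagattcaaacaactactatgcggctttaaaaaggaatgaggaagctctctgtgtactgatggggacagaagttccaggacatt
LINC01322: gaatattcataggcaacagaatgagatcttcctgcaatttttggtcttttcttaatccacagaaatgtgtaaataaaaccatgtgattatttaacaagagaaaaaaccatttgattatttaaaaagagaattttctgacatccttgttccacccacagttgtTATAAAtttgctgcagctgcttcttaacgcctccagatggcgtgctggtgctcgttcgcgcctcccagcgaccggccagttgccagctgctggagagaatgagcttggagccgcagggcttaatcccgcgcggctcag
LINC01213: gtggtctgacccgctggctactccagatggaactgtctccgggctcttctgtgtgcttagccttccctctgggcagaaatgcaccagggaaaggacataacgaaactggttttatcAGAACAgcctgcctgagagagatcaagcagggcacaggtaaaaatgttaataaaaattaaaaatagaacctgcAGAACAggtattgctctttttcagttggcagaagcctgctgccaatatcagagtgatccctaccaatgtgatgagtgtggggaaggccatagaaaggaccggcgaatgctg
LINC00641: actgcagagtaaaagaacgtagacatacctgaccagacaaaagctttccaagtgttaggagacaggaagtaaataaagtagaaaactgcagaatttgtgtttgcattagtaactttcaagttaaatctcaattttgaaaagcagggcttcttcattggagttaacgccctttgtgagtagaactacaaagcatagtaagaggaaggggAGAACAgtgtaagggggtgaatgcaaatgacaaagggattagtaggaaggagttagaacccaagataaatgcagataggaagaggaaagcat

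AGAACA or TGTTCT occurred in 14.8% of all 35116 promoters of the RefSeq table and in 17 of the 128 promoters (13.3%) of the 108 LINC genes listed there. Of the 7 LINC genes called between the LNCaP treatments and listed there, 2 held these letters, in 3 of their 12 promoters. By gene, 4790 of all 27305 genes and 16 of the 108 LINC genes held them. Those 2 called genes were picked for display. None of the 128 promoters held both arms in the spacing of the element. Binding of the androgen receptor was not tested. The letters occur 2 times in the LINC01213 promoter, as AGAACA both times, and once in that of LINC00641, while LINC00160 holds neither them nor TATAAA. The letters TATAAA or TTTATA occurred in 11.5% of all promoters and in 15 of 128 here (11.7%). In LINC01806 the overlapping letters TTTATAAA hold the box on both strands, in LINC01322 it stands 88 bases before the annotated start, and in LINC00261 it is read on the opposite strand. Pairs of C followed by G numbered a median of 17.5 per promoter of these genes and 14 over all promoters.

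The summed level of the 141 genes was 1815 ± 22.5 CPM in PC3 (SD, n = 3), 945 ± 3.75 CPM in androgen-treated and 1227 ± 39.7 CPM in vehicle-treated LNCaP cells. This amounted to at most 0.184% of the counts of any library. A few genes made up much of it in PC3, where LINC02582 alone took 21.9% of the counts on these genes and the 2 largest together 37.4%. Without LINC02582 and LINC00261 the sums were 1085 to 1168 CPM in PC3, 938 to 948 CPM with androgen and 1182 to 1262 CPM with vehicle, so that PC3 no longer had the highest sum. These 2 were picked as the largest in PC3, and no gene high in LNCaP was left out in turn.

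By mean level, 92 genes reached 2 CPM in PC3, 81 in androgen-treated and 96 in vehicle-treated LNCaP. All 3 groups were reached by 46 genes, PC3 alone by 39, both LNCaP groups without PC3 by 29, androgen alone by 5 and vehicle alone by 15. No LNCaP library exceeded 3 counts for 19 of the genes, and no PC3 library did for 11. The same threshold chose the genes and no share over all genes was computed, so nothing is read from these counts. The genes nearest the threshold were LINC00160 (2.01 CPM with androgen), LINC01234 (2.01 CPM with vehicle) and LINC00324 (2.03 CPM with vehicle) on its upper side, and LINC00634 (1.99 CPM), LINC00921 (1.90 CPM) and LINC01516 (1.88 CPM) on its lower side.

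**Figure D1:**
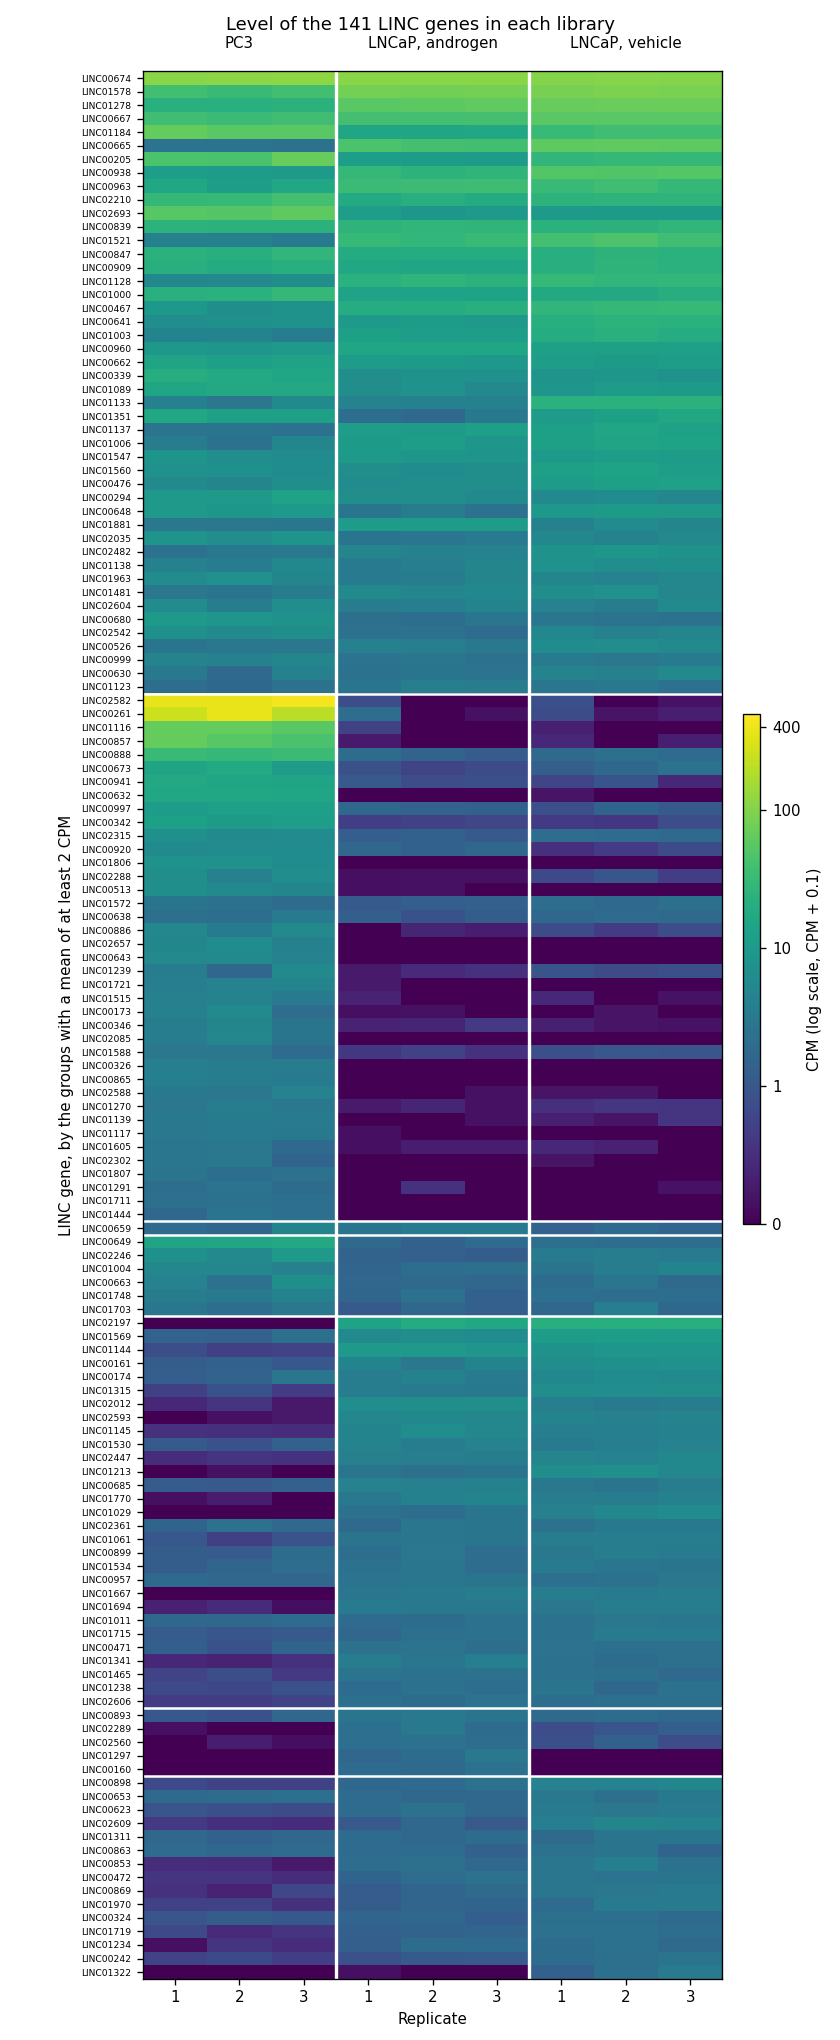
Level of each of the 141 LINC genes (rows) in each of the 9 libraries (columns, replicates 1 to 3 of PC3, androgen-treated LNCaP and vehicle-treated LNCaP), with colour giving CPM on a log scale after adding 0.1. Rows are blocked by the groups with a mean of at least 2 CPM; the top block holds the 46 genes at that level in all 3 groups and the next the 39 genes at it in PC3 alone, led by LINC02582 and LINC00261.

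Between their highest and lowest group means, 18 of the 46 genes at 2 CPM in every group differed by less than 2-fold. LINC00674 was the steadiest of the abundant ones, at 109, 113 and 119 CPM in PC3, 112, 111 and 111 CPM with androgen and 102, 108 and 103 CPM with vehicle. Its groups lay within 1.09-fold of each other by mean. GENCODE gives it as a transcribed pseudogene of 160 exon bases that share sequence with another gene on the same strand, so its counts are uncertain. LINC00667 was at 33.1 to 36.3 CPM in PC3, 38.9 to 40.1 CPM with androgen and 56.1 to 57.3 CPM with vehicle, in 3 ranges that did not overlap. LINC00662 spanned 9.43 to 14.2 CPM over all 9 libraries, and LINC00839 had group means of 24.3, 26.3 and 24.9 CPM in the same order of groups.

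The question of the first comparison was how PC3 cells differ from LNCaP cells that had received androgen. Each comparison was fitted on all genes that exceeded 3 CPM in at least 3 of its libraries, using the quasi-likelihood test of edgeR with p-values adjusted by Benjamini-Hochberg. Calls needed an adjusted p below 0.05 together with a change of 2-fold or more. Of the 82 LINC genes tested, 36 were higher in PC3, where 24% of all 12541 genes tested were, and 23 were lower, where 22.1% of all genes were. Another 59 LINC genes stayed below the filter. The median log2 fold change was 0.61 over the LINC genes tested and 0.04 over all genes. Since a high level in 1 group is what admitted many of these genes, nothing is read from these counts or medians. Of the LINC genes called, 43 had no library above 3 CPM in the lower group, among them LINC02582, LINC00261, LINC00665 and LINC00673. They entered the test through the other group alone, so their p-values are given as a description. With genes at a mean of 2 CPM in either group admitted instead, 126 LINC genes were tested, of which 52 were higher, beside 25% of all 13327 genes, and 41 lower, beside 22.8%, and nothing is read from these counts either.

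LINC02582, whose exons total 2493 bases, lies alone on chromosome 18 (chr18:73324941-73349879, plus strand), 456794 bases from its nearest coding gene, NETO1. It was at 379, 382 and 430.1 CPM in PC3, at 0.639, 0 and 0 CPM in LNCaP with androgen and at 0.713, 0 and 0.0536 CPM with vehicle. The groups did not overlap, and replicate 1 held 15 of the 15 counts with androgen and 13 of the 14 with vehicle. Against the androgen group the fitted log2 fold change was 10.65 ± 0.45 (SE, adjusted p = 2.42e-07, edgeR's quasi-likelihood test). Without replicate 1 no count was left in that group and PC3 was at least 5640-fold higher, counting 3 reads over the 2 libraries as the limit. Against the vehicle group the log2 fold change was 10.64 ± 0.41, and without replicate 1 the ratio was 14300 (95% exact counting interval 2580 to 567000), from 1 count. NETO1, which encodes a transmembrane protein of neuronal receptor complexes, was at 1.38 CPM in PC3 and at 373 and 583 CPM in the LNCaP groups.

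LINC00261 (chr20:22547663-22578642, minus strand) lies 2355 bases from FOXA2, the gene of a forkhead transcription factor of endoderm and its derivatives, and is known as a partner transcript of FOXA2. It was at 265, 374 and 208 CPM in PC3, at 2.00, 0 and 0.0474 CPM with androgen and at 0.603, 0.0575 and 0.107 CPM with vehicle. PC3 was above every LNCaP library, but among LNCaP libraries replicate 1 held 47 of 48 counts with androgen and 11 of 14 with vehicle. The log2 fold change was 8.51 ± 0.67 against androgen-treated cells (adjusted p = 7.45e-06) and 10.15 ± 0.45 against vehicle-treated cells (adjusted p = 3.35e-07). Without replicate 1 the ratio of PC3 to androgen-treated cells was 11900 (95% exact counting interval 2130 to 468000), from 1 count, and that to vehicle-treated cells 3350 (1150 to 16200), from 3 counts. FOXA2 averaged 71.95 ± 6.67 CPM in PC3 (SD, n = 3), 0.242 ± 0.418 CPM with androgen and 0.0731 ± 0.127 CPM with vehicle, and was called higher in PC3 in both comparisons. Its log2 fold changes were 8.01 against the androgen group and 9.9 against the vehicle group. All its LNCaP counts, 17 with androgen and 4 with vehicle, lay in replicate 1, and without it PC3 was at least 1020-fold above androgen-treated and at least 862-fold above vehicle-treated cells.

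LINC01116 (chr2:176611437-176637931, minus strand) has no coding gene within 273411 bases, where MTX2 lies, and its exons overlap those of LINC01117 on the opposite strand. It was at 66.9, 65.8 and 56.3 CPM in PC3, 0.426, 0 and 0 CPM with androgen and 0.110, 0 and 0 CPM with vehicle. All counts in LNCaP thus came from replicate 1, 10 with androgen and 2 with vehicle, and without it PC3 was at least 891-fold higher than androgen-treated and at least 756-fold higher than vehicle-treated cells. LINC01117 was at 2.94, 3.12 and 3.00 CPM in PC3 and had 1 count in the 6 LNCaP libraries, while 27.8% of the reads on it in PC3 lay on the other strand.

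LINC00857, whose start lies 1800 bases from that of ANXA11, was at 66.1, 55.5 and 43.3 CPM in PC3 and at most at 0.165 CPM in LNCaP. Its ratio to androgen-treated cells was 1810 (95% exact counting interval 501 to 15000), where both of the 2 counts lay in replicate 1, and without it PC3 was at least 778-fold higher. Against vehicle-treated cells without replicate 1 the ratio was 990 (274 to 8170), from 2 counts. ANXA11, which encodes a calcium-dependent membrane-binding annexin, was also higher in PC3, at 507 CPM against 134 and 130 CPM, with a log2 fold change of 1.83 against androgen-treated cells. LINC00632 is the RNA that spans the CDR1 locus on chromosome X and from which the circular RNA CDR1as is made. Its gene counts, which were not counted for the circle separately, were at 16.3, 16.4 and 15.1 CPM in PC3 and amounted to 1 count in 6 LNCaP libraries. PC3 was at least 350-fold higher than androgen-treated cells.

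LINC01806, LINC02657, LINC00643, LINC00326 and LINC00865 had no count in any LNCaP library. LINC01806 was at 7.91, 7.44 and 6.20 CPM in PC3, at least 158-fold above androgen-treated cells. LINC02657, also named LASTR, was at 4.93, 6.19 and 4.13 CPM, a bound of at least 111-fold. In PC3 the mean of LINC00643 was 5.06 CPM, that of LINC00326 3.57 CPM and that of LINC00865 3.56 CPM. LINC00643 shares exon sequence with a coding gene model on its strand, which leaves its counts uncertain. In all, 9 of the 141 genes had no count in any of the 6 LNCaP libraries and 6 had none in PC3, from which nothing is read. LINC00513 (4.84 to 6.96 CPM) and LINC01721 (3.66 to 4.56 CPM) were likewise seen in PC3, with at most 2 counts in any LNCaP library.

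Per kilobase of exon, LINC00674 reached 712 CPM in PC3, over only 160 annotated exon bases. Among other genes named here, LINC02582 reached 159 CPM in PC3, LINC00261 46.2, LINC01351 22.3, LINC00857 21.9, LINC01116 13.6 and LINC00632 0.552. These are examples and no full ranking of the 141 genes. LINC00632, with 28876 exon bases, thus stood far lower by length-scaled level than by count.

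In the other direction, LINC00665, which lies 2682 bases from ZFP14 among the zinc finger genes of chromosome 19 and is known to encode a micropeptide, was at 2.47, 2.45 and 2.38 CPM in PC3, 44.1, 40.3 and 38.4 CPM with androgen and 61.00, 63.3 and 60.1 CPM with vehicle. The 3 ranges were separate. PC3 differed from androgen-treated cells by a log2 fold change of -4.16 ± 0.11 (adjusted p = 3.45e-08) and from vehicle-treated cells by -4.57 ± 0.08 (adjusted p = 1.2e-08), by edgeR's quasi-likelihood test. LINC01521, back to back with PATZ1 at 431 bases, was at 3.12 to 4.06 CPM in PC3, 28.4 to 30.8 CPM with androgen and 36.8 to 46.3 CPM with vehicle. PATZ1, which encodes a zinc finger transcription factor, had means of 61.04, 35.5 and 81.0 CPM in the same order. It was not called between the lines but was lower with androgen than with vehicle (log2 fold change -1.04), where LINC01521 had -0.30 and was not called.

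LINC02197 had no count in PC3 and 13.4 to 21.0 CPM in LNCaP, at least 392-fold above PC3 with androgen, but 77.6% of its stretches recur elsewhere. LINC01029 and LINC01667 also had no count in PC3 and stood at 2.05 to 5.89 CPM and 2.77 to 3.56 CPM in LNCaP. LINC01213 had 1 count in PC3, against 2.24 to 2.66 CPM with androgen and 5.09 to 7.13 CPM with vehicle. LINC02012 was lower in PC3 by a log2 fold change of -5.34 ± 0.26 against androgen-treated cells, and its neighbour BDH1, which encodes a ketone body enzyme, by -3.84. LINC01144, LINC01145, LINC01694 and LINC02447 were each lower in PC3 as well, with log2 fold changes between -4.85 and -4.06.

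**Figure D2:**
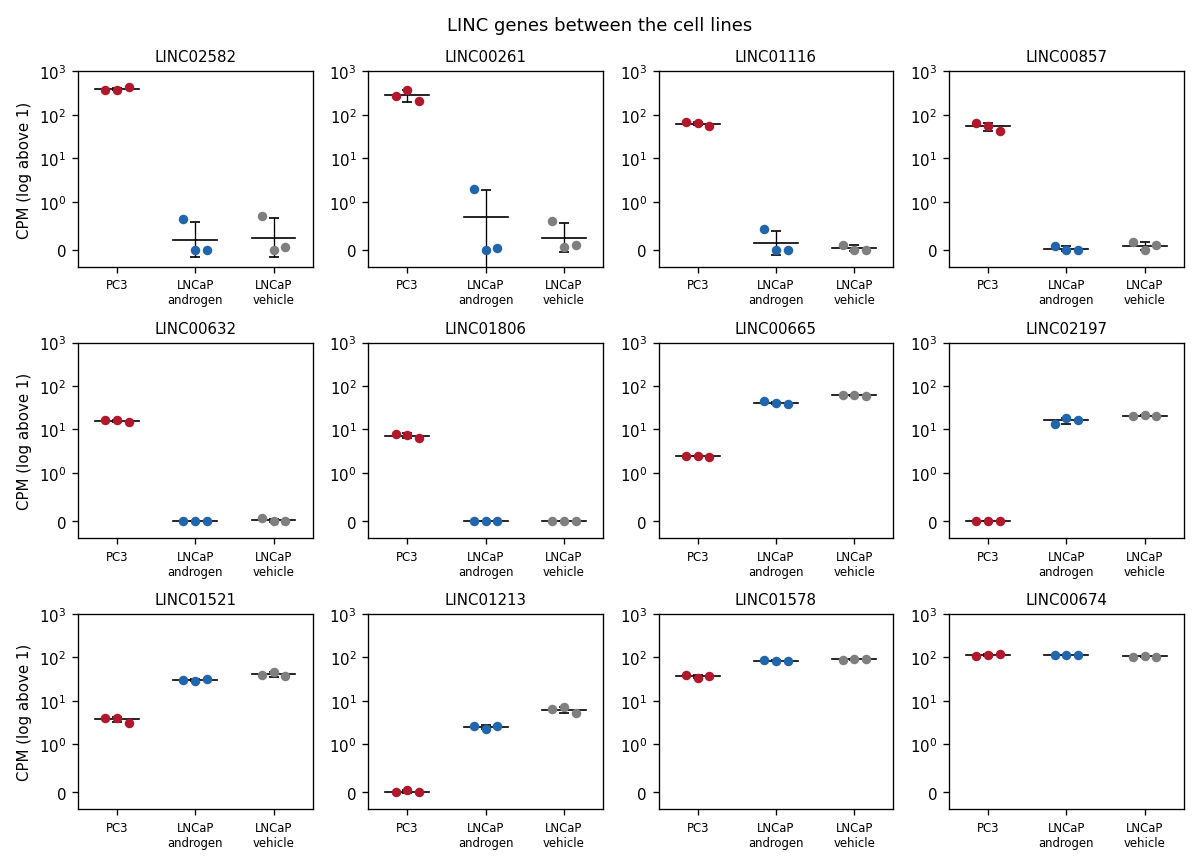
CPM of 12 LINC genes in each library of PC3, androgen-treated LNCaP and vehicle-treated LNCaP (points, replicates 1 to 3 from left to right; line and bar, mean ± SD, n = 3), on an axis that is linear below 1 CPM and logarithmic above. LINC02582, LINC00261 and LINC01116 are high in PC3 with the low LNCaP values mostly in replicate 1, LINC00665 and LINC01521 are high in LNCaP, and LINC00674 is level.

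Against vehicle-treated LNCaP cells, 90 LINC genes were tested, 29 higher in PC3 beside 22.2% of all 12686 genes tested and 33 lower beside 21% of all genes. The PC3 libraries enter both comparisons of the lines, so the values are given side by side. Of the LINC genes called here, 46 had no library above 3 CPM in the lower group, LINC02582, LINC00261 and LINC00665 again among them. Nothing is read from the counts, and the p-values of these genes are a description. The median log2 fold change was 0.09 over the LINC genes tested and 0.03 over all genes. LINC01133 was lower in PC3 than in vehicle-treated cells (log2 fold change -2.39 ± 0.21, adjusted p = 1.71e-05), while against androgen-treated cells its value was -0.10 and not called. LINC01351 and LINC00648 had values of 2.49 and 1.65 against androgen-treated cells, both higher in PC3, and of 0.12 and 0.04 against vehicle-treated cells, neither of which was called.

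LINC genes with a described role were followed as a list of 35, of which 16 were among the 141. Against androgen-treated LNCaP, 7 were higher and 4 lower in PC3 of 15 tested, where 24% and 22.1% of all genes were. Against vehicle-treated LNCaP 7 were higher and 5 lower of 15, beside 22.2% and 21% of all genes. Between the treatments 0 were higher and 2 lower with androgen of 10 tested, beside 6.54% and 7.49%, by edgeR's quasi-likelihood test. Genes reached these tests through their level, and nothing is read from the counts. LINC00673, reported to promote the turnover of the phosphatase PTPN11, was at 11.1 to 18.2 CPM in PC3, 0.466 to 0.725 CPM with androgen and 1.21 to 2.36 CPM with vehicle, and its log2 fold change against androgen-treated cells was 4.49 ± 0.27 (adjusted p = 1.37e-06). LINC00920, described as a target of the transcription factor ERG in prostate cancer, was at 5.89 to 6.12 CPM in PC3, 1.31 to 1.61 CPM with androgen and 0.219 to 0.589 CPM with vehicle. The groups did not overlap for either gene.

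LINC00963 was first described in the passage of prostate cancer cells to androgen independence. It was at 11.8 to 16.5 CPM in PC3, 33.0 to 35.8 CPM with androgen and 29.4 to 36.8 CPM with vehicle, and its log2 fold change between the LNCaP treatments was 0.25 ± 0.08, under the fold threshold. PC3 was lower than androgen-treated cells by -1.31 ± 0.13 and than vehicle-treated cells by -1.05 ± 0.15, and the latter call was lost without PC3 replicate 2 (-0.92) or vehicle replicate 2 (-0.95). LINC01578, known as CHASERR, lies upstream of the chromatin remodeller gene CHD2 and restrains its expression. GENCODE gives them exon sequence in common on the same strand, so that their reads cannot be fully told apart. LINC01578 was at 32.4 to 38.2 CPM in PC3, 81.1 to 84.3 CPM with androgen and 86.9 to 91.9 CPM with vehicle, lower in PC3 by log2 fold changes of -1.29 ± 0.08 and -1.23 ± 0.08 and not called between treatments (0.05 ± 0.04, adjusted p = 0.329). LINC00467, which encodes a mitochondrial micropeptide, was lower in PC3 (log2 fold changes -1.41 and -1.77), and LINC00339, which overlaps a coding gene model on its strand, was higher (1.19 and 1.16).

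The second comparison asked what androgen changed in LNCaP cells. Of 64 LINC genes tested, 2 were higher with androgen, beside 6.54% of all 11697 genes tested, and 10 were lower, beside 7.49% of all genes. Their median log2 fold change was -0.28, against -0.01 over all genes, and 47 of the 64 values were below 0. A further 9 genes with positive and 24 with negative values passed the adjusted p but not the fold change. Of the 10 lower genes, LINC02609, LINC01351, LINC01213, LINC02246 and LINC00898 had no androgen library above 3 CPM and thus entered the test through the vehicle group alone, so nothing is read from the count or the median. The p-values of these genes are likewise a description. Whether replicate numbers pair the LNCaP libraries was not settled. With the number as a block 9 were lower, since LINC01184 at a log2 fold change of -1.0 lost its call. An androgen check list of 10 genes, all called higher, summed to 17320 to 19010 CPM with androgen and 1521 to 1882 CPM with vehicle. The list was chosen with earlier results of these data known, so its calls are a description and no independent check.

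LINC01133, an RNA studied in epithelial tumours, lies at chr1:159958035-159984750 (plus strand), 3797 bases from SLAMF9, which was under 1 CPM in each group by mean. It was at 4.31, 4.11 and 4.17 CPM with androgen and 23.04, 22.9 and 23.8 CPM with vehicle. The 2 groups were far apart relative to their spread, and the log2 fold change was -2.32 ± 0.09 (adjusted p = 6.84e-11, edgeR's quasi-likelihood test). PC3 cells had 4.06, 2.81 and 5.58 CPM.

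LINC01351, now BRINP3-DT, starts 147 bases from BRINP3 on the opposite strand, at chr1:190478551-190480735 (plus strand), and shares exon sequence on its own strand with another lncRNA gene. It was at 2.09, 1.73 and 2.99 CPM with androgen, 10.6, 12.6 and 16.4 CPM with vehicle and 15.8, 12.4 and 12.5 CPM in PC3. The androgen group lay below both others, and the log2 fold change was -2.39 ± 0.20 (adjusted p = 1.62e-07). BRINP3 itself had means of 0.0560 CPM in PC3, 0.945 CPM with androgen and 1.58 CPM with vehicle. LINC00648, in a gene-poor stretch 89348 bases from MDGA2, was at 2.64, 3.59 and 2.32 CPM with androgen and 9.38, 10.1 and 10.1 CPM with vehicle, a log2 fold change of -1.64 ± 0.15.

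LINC00205, back to back with POFUT2 at 137 bases, was at 11.8, 10.6 and 10.8 CPM with androgen and 27.3, 28.5 and 28.8 CPM with vehicle, a log2 fold change of -1.19 ± 0.07 (adjusted p = 7.85e-09). POFUT2, which encodes a protein O-fucosyltransferase, had means of 26.2 and 24.7 CPM and was not called. LINC02609 fell by 1.70 on the log2 scale, LINC02246 by 1.19, LINC01213 by 1.14 and LINC00641 by 1.03. LINC00641, whose promoter holds AGAACA, was at 9.46, 10.9 and 10.05 CPM with androgen and 21.6, 24.3 and 23.3 CPM with vehicle. LINC00898, named after its values were seen, was at 1.62 to 2.42 CPM with androgen and 4.20 to 4.82 CPM with vehicle, a log2 fold change of -1.02 ± 0.17. LINC00898 lost its call without replicate 1 (-0.9) or 2 (-0.99) of the androgen group or replicate 3 of the vehicle group (-0.95), and LINC00641 without androgen replicate 1 (-0.99) or vehicle replicate 2 (-1.0). LINC01184, now SLC12A2-DT, starts 594 bases from SLC12A2, the gene of a sodium-potassium-chloride cotransporter, and was at 15.2 to 16.2 CPM with androgen and 30.9 to 36.8 CPM with vehicle. SLC12A2 had means of 73.2 and 126 CPM and a log2 fold change of -0.63, under the fold threshold.

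LINC01881 and LINC02012 rose with androgen. LINC01881, annotated by GENCODE as a transcribed pseudogene that shares exon sequence with another gene on its strand, was at 10.7, 10.6 and 10.8 CPM with androgen, 4.06, 6.04 and 4.77 CPM with vehicle and 2.82, 2.81 and 2.77 CPM in PC3. Its log2 fold change was 1.27 ± 0.13 (adjusted p = 1.16e-06). LINC02012 was at 6.31, 6.53 and 6.54 CPM with androgen and 3.68, 3.28 and 3.59 CPM with vehicle, a CPM ratio of 1.84 and, with TMM factors, a log2 fold change of 1.03 ± 0.12. It was no longer called without replicate 2 of the vehicle group (0.98).

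**Figure D3:**
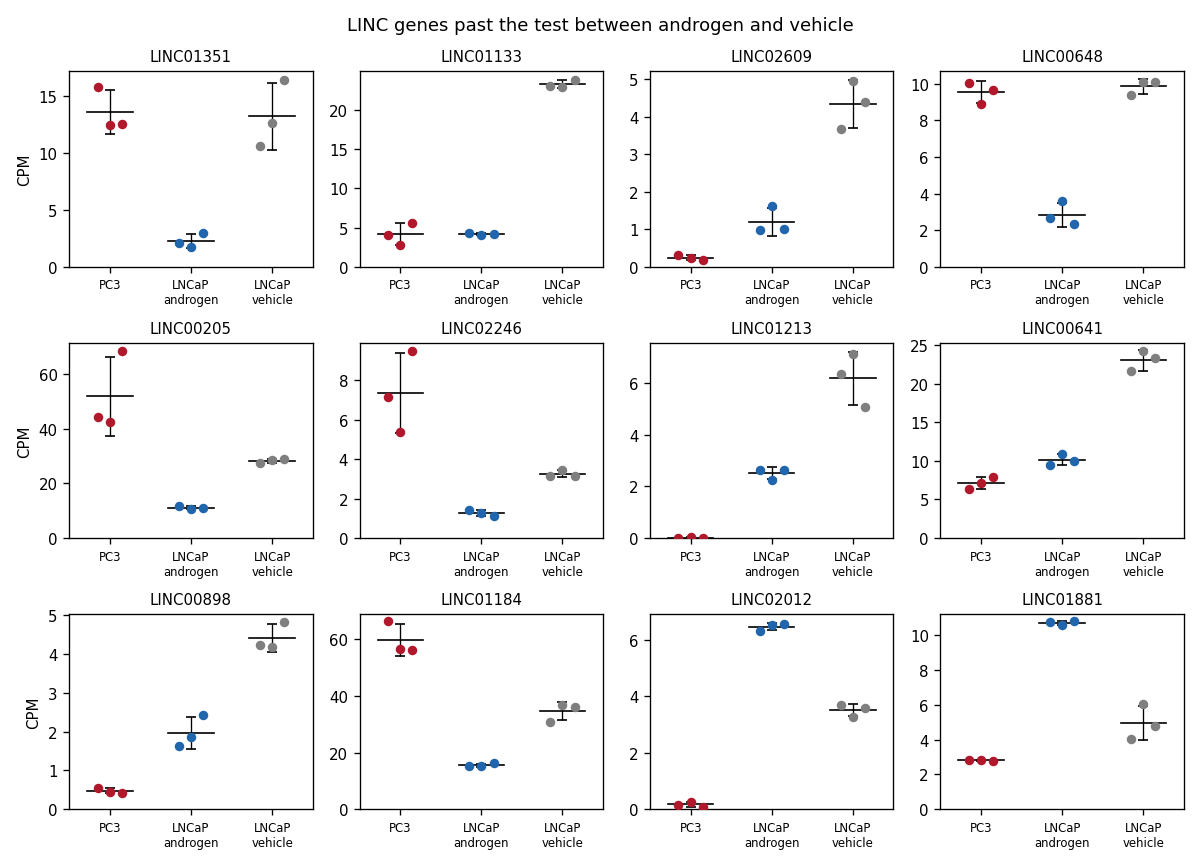
CPM of the 12 LINC genes called between androgen and vehicle, in each library of the 3 groups (points, replicates 1 to 3 from left to right; line and bar, mean ± SD, n = 3; linear axes from 0). For LINC01351 and LINC00648 the PC3 libraries lie near the vehicle group, and for LINC01133 near the androgen group.

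**Figure D4:**
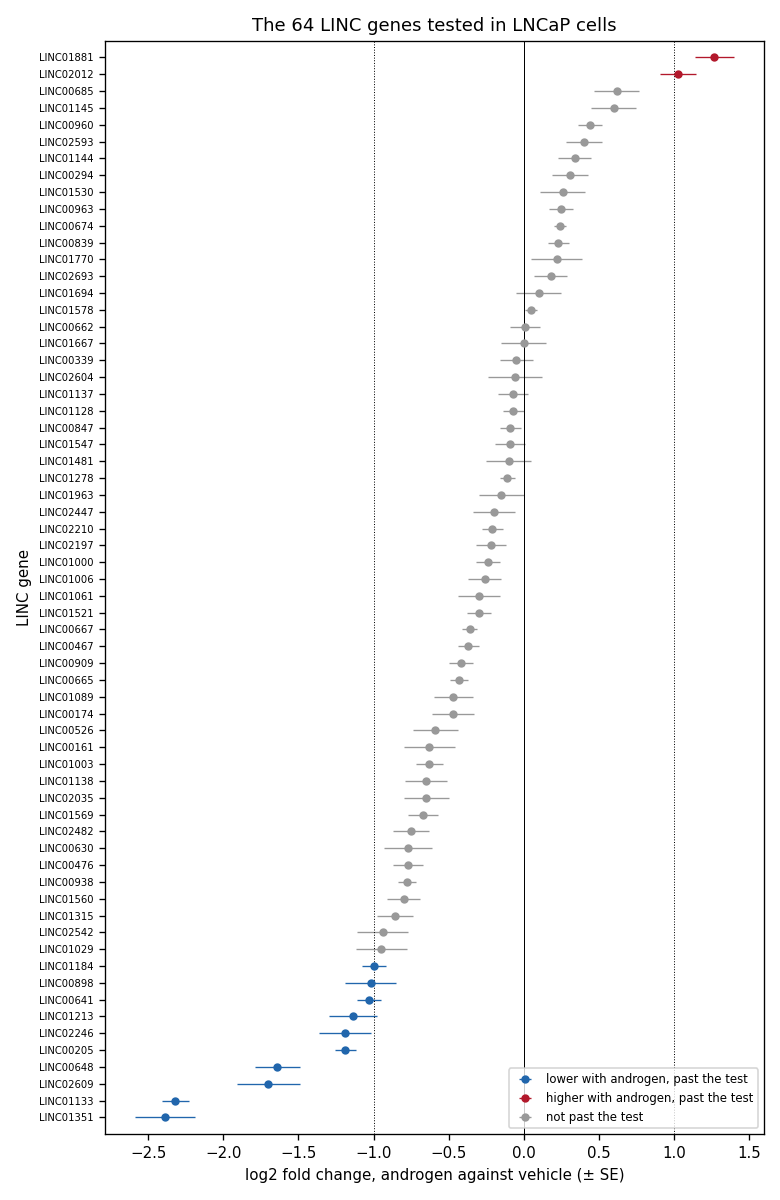
log2 fold change of the 64 LINC genes tested, androgen against vehicle, with SE bars, sorted by value; dotted lines mark a fold change of 2. The 10 called lower run from -2.39 (LINC01351) to -1.0 (LINC01184) and the 2 called higher are LINC01881 and LINC02012.

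The filter kept out genes seen near 2 CPM in 1 treatment. With the filter set at a mean of 2 CPM in either group, 102 LINC genes were tested, 7 higher, beside 6.98% of all 12358 genes, and 11 lower, beside 8.03%, and nothing is read from these counts. LINC00160 (chr21:34723807-34737204, minus strand), 5579 bases from CLIC6, was at 1.88, 1.77 and 2.37 CPM with androgen and had no count in the other 6 libraries. It was at least 36.2-fold above vehicle-treated cells. It is the gene just inside the threshold of 2 CPM and was included through the androgen group alone, so its values are a description. CLIC6 itself averaged at most 0.0314 CPM in any group. LINC01297 showed the same pattern, at 1.58, 1.96 and 2.89 CPM with androgen and no count elsewhere, but 70.4% of its 74-base stretches recur elsewhere.

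LINC01322 (chr3:165206929-165846519, plus strand) was the reverse case, at 1.26, 2.24 and 3.16 CPM with vehicle, 1 count with androgen and none in PC3. The ratio of vehicle to androgen was 147 (95% exact counting interval 25.9 to 5860). It spans BCHE, the gene of butyrylcholinesterase, which lies on the opposite strand and shares no exon with it. BCHE had means of 2.21 CPM in PC3, 7.29 CPM with androgen and 265 CPM with vehicle, a log2 fold change of -5.05 with androgen.

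LINC02288 and LINC02289 lie on opposite strands of chromosome 14 and overlap by their ends. LINC02288 was at 6.56, 4.01 and 6.32 CPM in PC3, 0.0426, 0.0467 and 0.0474 CPM with androgen and 0.549, 0.862 and 0.375 CPM with vehicle. LINC02289 was at 0.0398, 0 and 0 CPM in PC3, 2.17, 2.89 and 1.94 CPM with androgen and 0.658, 0.862 and 1.18 CPM with vehicle. The order of the groups was thus opposite for these 2 genes. Of the reads on LINC02289, 98.8% in PC3 lay on the other strand, 0.645% with androgen and 12.5% with vehicle.

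Strand mattered for a minority of the genes. The deposited counts are of 1 strand, and a median of 0.619% of the reads on these genes lay on the other strand, under 5% for 116 genes and over 20% for 10. LINC02593, at 5.07 to 5.23 CPM with androgen and 3.97 to 4.55 CPM with vehicle, had 24.8% and 56.7% of its reads on the other strand. Its log2 fold change with androgen was 0.40 and reversed to -0.40 with unstranded counts. LINC01547, which starts 84 bases from SLX9, had 68.3% of its reads on the other strand in PC3 and 1.32% and 0.344% in LNCaP, and its log2 fold change between PC3 and androgen-treated cells moved from -0.50 to 1.47 with unstranded counts. LINC01291 was the opposite case, with 1.88% in PC3 and 87.2% and 97.6% in LNCaP.

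Where both a LINC gene and its nearest coding gene were tested, the pairs were set side by side. Between PC3 and androgen-treated LNCaP, 57 pairs were tested, the LINC gene was called in 41 and the coding gene in 23, where 46.0% of all genes tested were called in either direction. In 21 both genes were called, 17 in the same and 4 in the opposite direction. Across these pairs, which share libraries and are no replicates, Pearson's r of the log2 fold changes was 0.30 and Spearman's rho 0.41. Between the LNCaP treatments 40 pairs were tested, r was -0.16 and rho -0.07, the LINC gene was called in 6, the coding gene in 3 and both in 0, where 14.0% of all genes tested were called. Many of these LINC genes entered a test through 1 group alone, and other gene pairs were not examined. Nothing is therefore read from these counts or correlations. At a single neighbour the directions could part, as for LINC02582 and NETO1 between the lines. NOVA1, the gene of a neuronal splicing regulator back to back with LINC02588, had means of 15.4, 3.91 and 17.3 CPM in PC3, androgen and vehicle, while LINC02588 was at 3.06, 2.81 and 4.29 CPM in PC3 and had at most 1 count in any LNCaP library.

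**Figure D5:**
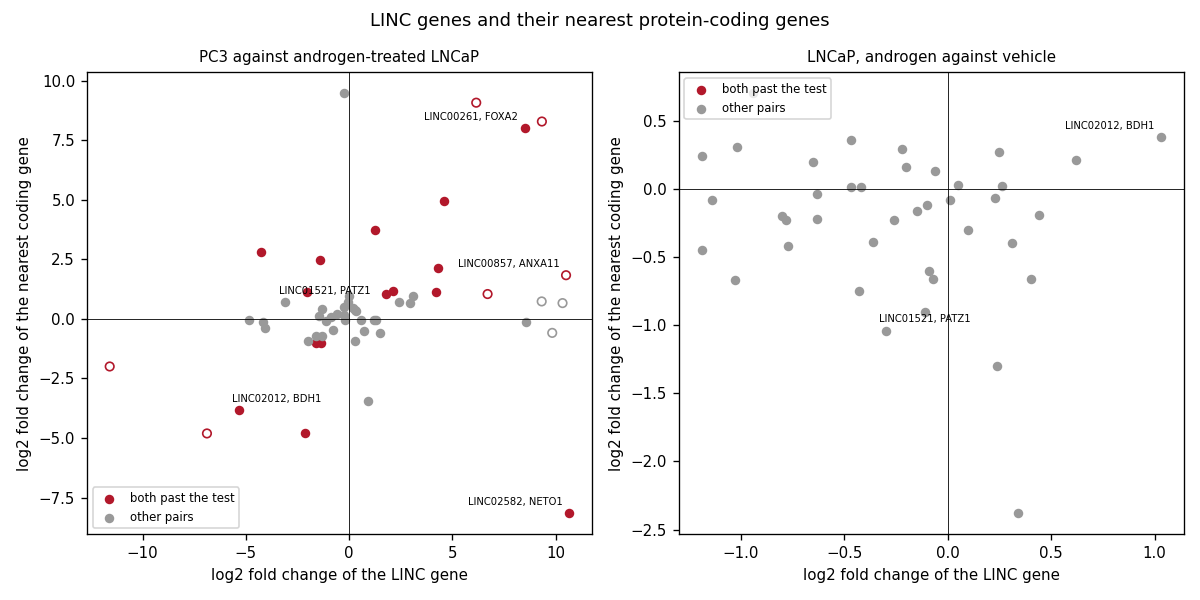
log2 fold change of each LINC gene (x) and of its nearest protein-coding gene (y), 57 pairs for PC3 against androgen-treated LNCaP (left) and 40 pairs for androgen against vehicle (right). Red marks pairs with both genes called, and open points LINC genes with 3 or fewer counts in 1 group, whose fitted value is no estimate of size; LINC00261 with FOXA2 and LINC02582 with NETO1 lie at the upper and lower right.

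Noncoding genes with other kinds of names, a list of 30 such as NEAT1, were read beside these. Of 26 tested between PC3 and androgen-treated LNCaP, 5 were higher and 6 lower in PC3, beside 24% and 22.1% of all genes, with a median log2 fold change of 0.27. Of 25 tested between treatments 2 were higher and 2 lower with androgen, beside 6.54% and 7.49%, and their median was -0.27. Against vehicle-treated LNCaP, 4 were higher and 7 lower in PC3 of 26, beside 22.2% and 21%, with a median of 0.18. NEAT1, the RNA scaffold of nuclear paraspeckles, rose with androgen from 711 to 787 CPM to 1670 to 2072 CPM (log2 fold change 1.49 ± 0.07, adjusted p = 3.41e-10), and MIR22HG rose from 4.71 to 6.26 CPM to 14.98 to 18.0 CPM. CRNDE fell by 1.43 and DLEU2 by 1.07 on the log2 scale.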

How the data were processed

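RNA of 9 libraries was sequenced, 3 each of PC3, androgen-treated LNCaP and vehicle-treated LNCaP cells. The authors trimmed the reads, aligned them to hg38 and removed duplicates by molecular identifiers. The submitters' processing notes name cutadapt 4.1, STAR 2.7.7a and UMI-tools 1.1.2, while the study's supplement gives other versions of cutadapt and STAR; the gene annotation is not given in the sources used here. The authors deposited counts, whole numbers of reads per gene symbol without normalization, as 1 table and as per-library output for each strand. All 253944 values of the table equalled the forward-strand column, and 0 columns were left out.

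LINC genes were symbols of LINC and digits only, kept at a mean of 2 CPM (count per 1000000 counts of the library) in at least 1 group. These genes and all lists were chosen with earlier results of these data known. Tests used edgeR 4.0.16 (R 4.3.3): genes above 3 CPM in at least 3 libraries of the fit, TMM factors, the quasi-likelihood F test without a batch term, and Benjamini-Hochberg adjustment over all genes tested. The study used a likelihood ratio test with a batch term. A fold against a group without counts is a lower bound against 3 counts over that group, and with 1 to 3 counts a ratio with its exact interval is given; both use counts per library total. Genes were named from several sets, and not every gene of a set is described. The sets were the 10 with the highest mean CPM and the 8 called genes with the largest change in each direction of each comparison. Up to 6 without a library above 3 counts in LNCaP or in PC3 and the 3 on each side of the threshold were added. Further sets were a list of described LINC genes and up to 5 examples each of divergent starts and opposite-strand reads. Among the 10 highest, LINC01278 and LINC00938 are not described above. LINC01278 had means of 22.6 CPM in PC3, 59.1 CPM with androgen and 70.8 CPM with vehicle. LINC00938 had 11.0, 26.7 and 51.0 CPM in the same order. LINC00898, LINC01521, LINC00839, LINC02288, LINC02289, LINC01322, LINC01297, LINC01117, LINC01291, LINC01547, LINC02588, LINC00685, LINC00659, LINC00326 and LINC01123 were named after their values were seen.

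Deviations of replicates with the same number had r = 0.15, 0.231 and 0.207 over 10015 genes in LNCaP, and those with different numbers -0.266 to 0.104. Between the lines same-numbered libraries had r from -0.198 to 0.0817. Differently numbered libraries of PC3 and androgen-treated LNCaP reached 0.221. Values of this size thus also occurred without pairing, and whether the numbers pair the LNCaP libraries was not settled. Annotation came from GENCODE 44, of the same build as the files, and promoters from RefSeq GRCh38.p14. Alternatives covered scaling with DESeq2 1.42.0 size factors, the DESeq2 Wald test, other filters and thresholds, unstranded counts and single libraries left out.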

Additional observations from a re-analysis of the deposited data

How the results depend on the processing

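Lower in PC3 than in androgen-treated LNCaP were 23 genes, 41 with a filter at a mean of 2 CPM in 1 group and 51 without a filter. Over all genes these settings gave 2768, 3035 and 4349. In the same order 2, 7 and 8 were higher with androgen, beside 765, 863 and 1361 over all genes. Against vehicle-treated LNCaP 29, 44 and 44 were higher in PC3, beside 2822, 3115 and 4475 over all genes. Lower there were 33, 50 and 52, beside 2663, 2911 and 4238. More genes were tested under both settings. For PC3 against androgen-treated LNCaP 82, 126 and 141 LINC genes were tested, of 12541, 13327 and 21303 genes. Between treatments these were 64, 102 and 132 of 11697, 12358 and 20429. For PC3 against vehicle-treated LNCaP they were 90, 136 and 139 of 12686, 13447 and 21238. The adjusted p alone gave 11 higher and 34 lower with androgen of 64 tested, beside 4345 and 4418 of all 11697 genes. A test against a fold change of 2 in edgeR gave 0 higher and 5 lower, beside 595 and 633 of all 11697 genes. At an unadjusted p under 0.05, 1 LINC gene was higher in that test and 11 were in the quasi-likelihood test. The DESeq2 Wald test called 2 higher, beside 769 over all genes. Nothing is read from any of these counts. At 5 CPM the number of LINC genes was 73 instead of 141.

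With single libraries left out, PC3 against androgen-treated LNCaP gave 36 to 37 higher and 22 to 24 lower. Over all genes it gave 2974 to 3020 and 2736 to 2822. PC3 against vehicle-treated LNCaP gave 28 to 30 and 31 to 35, and over all genes 2713 to 2863 and 2633 to 2753. With androgen 1 to 2 were higher and 7 to 11 lower, and over all genes 752 to 766 and 849 to 920. The single higher call was left without vehicle replicate 2, and nothing is read from these counts. With the replicate block the counts were 36 and 23, 29 and 33, and 2 and 9 in the same order. Over all genes they were 2983 and 2773, 2802 and 2693, and 763 and 875. Among LINC genes, LINC01184 was the call that the block changed. Unstranded counts, both filters, DESeq2 size factors, the DESeq2 Wald test, the test against a fold change of 2 and 4 of the 6 single libraries left out also took that call, at values from -0.96 to -1.0 beside the threshold of -1. Same-numbered libraries of PC3 and LNCaP did not deviate together.

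Some values that were not called changed sign with single libraries left out: LINC00339 (-0.09 to 0.01) and LINC00662 (-0.04 to 0.06) with androgen, LINC00659 (-0.9 to 0.04), LINC01133 (-0.39 to 0.12) and LINC01138 (-0.14 to 0.18) between PC3 and androgen-treated cells, and LINC00648 (-0.01 to 0.08) and LINC01351 (-0.01 to 0.31) between PC3 and vehicle-treated cells. With unstranded counts LINC01138 (-0.18), LINC02593 with androgen (-0.4) and LINC01547 (1.47 and 1.35 against the LNCaP groups) changed sign. Over the fold changes of named genes under all settings, 2111 kept direction and side of the threshold. A call was gained by 34 and lost by 33, and 14 changed sign. Most gained calls came with the adjusted p alone, a setting that drops the fold threshold. The other gains came with single libraries left out. Part of the lost calls came from the stricter test against the fold threshold. The cause of the other changes was not tested. Depth allows no statement on genes under 0.172 CPM in a single library.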
